A study of Mus musculus with 40 samples.

Results

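The 10 genes described here are classical immediate early and cAMP-responsive genes, *Nr4a1*, *Nr4a2*, *Nr4a3*, *Fos*, *Fosb*, *Junb*, *Atf3*, *Crem*, *Sik1* and *Egr1*. They were chosen by gene symbol from the 20295 genes of the count table, and all 10 were found. Their levels were followed in brown adipose tissue (BAT) of 40 mice. The question was whether they were high or damped after 9 days of daily injections of a β3-adrenergic agonist, or with a lifelong Gs-coupled transgene. *Nr4a3* had too few counts for the test, and the other 9 were tested. The clearest changes were in *Nr4a1*, which was lower in C-3BO mice and after CL on either diet, and in *Sik1*, which was higher in C-3BO mice on chow and not higher with CL.

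When a Gs-coupled receptor such as the β3-adrenergic receptor is activated, cAMP rises and protein kinase A phosphorylates CREB, which binds cAMP response elements (CREs) near its target genes, helped by the CRTC coactivators. Immediate early genes are transcribed within minutes of a stimulus without new protein synthesis, and their mRNAs are usually short-lived. Several of them feed back on the pathway: *Crem* encodes inducible repressors of CRE-driven transcription, and *Sik1* encodes a kinase that keeps CRTC proteins out of the nucleus.

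All mice were male, were housed at 29 °C, and were fed chow or a high-fat diet (HFD, 60 kcal% fat) for 7 days, with 5 mice in each of 8 groups. The uninjected cohort, 13 to 19 weeks old, held C-3BO mice and littermate controls. C-3BO mice carry a *Gpr3* transgene behind a CAG promoter and a floxed stop in ROSA26, opened by *Ucp1*-Cre, so that this constitutively active Gs-coupled receptor is made in brown and beige adipocytes throughout life. The controls were a mixture of littermates with the transgene but no Cre and with Cre but no transgene. The injected cohort, 15 weeks old, is labelled wild-type. By the study's methods these mice were control littermates from a line with a tamoxifen-inducible *Ucp1*-CreERT2, and such controls carried either the silent transgene or the Cre and not both. They were given the β3-adrenergic agonist CL-316,243 (CL, 1 mg/kg) or saline (10 µL/g) daily for 9 days. On HFD the injections began 2 days before the diet. The last injection was given on the day before the tissue was taken, so that these samples show the chronic and not the acute response. The hour of collection is not given in the sources used here.

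Levels are given as CPM, the counts of a gene relative to its library total after TMM scaling. Library totals ran from 849126 to 15260516 counts, and the 10 genes together received 263 to 15420 counts per library. The 12 shallowest libraries came from every injected mouse on HFD and from C-3BO mice 4 and 5 on HFD. These libraries also carried *Alb* at 62.2 to 294 CPM against at most 1.62 CPM in the other 28, so that in the injected cohort diet cannot be told apart from this difference between libraries. *Gpr3*, the transgene, was at 266 to 918 CPM in the 10 C-3BO mice and at most 9.15 CPM in the other 30. *Ucp1*, a defining brown adipocyte marker, was at 1116 CPM or more in all 40 mice. Chow CL mouse 5 had *Ucp1* at 1644 CPM, within the 1267 to 1865 CPM of the chow saline mice and far below the 5943 to 8986 CPM of the other 4 chow CL mice. Each of the 5 mice of a group was a separate animal. In whole tissue, fewer cells of a type and less RNA per cell cannot be told apart.

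The DNA just before 4 of the genes is shown because it carries the letters that CREB binds. In the 250 bases before each gene in mm9, both strands were searched for the full CRE, TGACGTCA, and for its shorter form TGACG or CGTCA, which also lies within the full CRE. None of the 10 windows held the full CRE, which was in 2.14% of the windows of all 20295 genes. The *Sik1* window opens with the full CRE less its first letter, so a full CRE cut by the edge would be missed there. The shorter form was in 8 of the 10 windows and in 21.2% of all windows. Because the genes were chosen as known cAMP-responsive genes, the higher share is no independent result. *Nr4a1*, *Nr4a2* and *Sik1* had 4 matches each, *Fos* and *Egr1* had 2 each, *Fosb*, *Junb* and *Atf3* had 1 each, and *Nr4a3* and *Crem* had none. The windows of the 3 genes with most matches and of *Fos* are printed 5′ to 3′ on the strand of the gene, with matches to the shorter form in capitals. *Nr4a1* and *Sik1* had the clearest changes, in opposite directions in C-3BO mice, and *Nr4a2* has as many matches but was called in none of the 4 comparisons of CL or C-3BO with controls. The windows are chr15:101097027-101097276 (plus strand), chr2:56976415-56976664 (minus strand), chr17:31992738-31992987 (minus strand) and chr12:86814601-86814850 (plus strand).
*Nr4a1*: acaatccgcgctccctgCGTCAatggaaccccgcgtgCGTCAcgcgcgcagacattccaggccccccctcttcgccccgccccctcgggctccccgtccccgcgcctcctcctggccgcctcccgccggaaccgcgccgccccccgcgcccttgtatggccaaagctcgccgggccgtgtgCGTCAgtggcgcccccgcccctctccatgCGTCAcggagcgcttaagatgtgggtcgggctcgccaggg
*Nr4a2*: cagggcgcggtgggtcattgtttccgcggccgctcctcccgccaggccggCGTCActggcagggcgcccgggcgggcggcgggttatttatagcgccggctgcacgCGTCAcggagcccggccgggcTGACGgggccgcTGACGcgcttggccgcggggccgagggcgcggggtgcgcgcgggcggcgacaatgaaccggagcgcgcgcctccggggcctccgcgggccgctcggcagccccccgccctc
*Sik1*: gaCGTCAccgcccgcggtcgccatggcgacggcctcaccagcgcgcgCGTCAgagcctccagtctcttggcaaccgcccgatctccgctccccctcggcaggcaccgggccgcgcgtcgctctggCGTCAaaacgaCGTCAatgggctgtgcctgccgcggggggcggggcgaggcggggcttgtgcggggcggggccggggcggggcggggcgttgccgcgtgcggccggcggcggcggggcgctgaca
*Fos*: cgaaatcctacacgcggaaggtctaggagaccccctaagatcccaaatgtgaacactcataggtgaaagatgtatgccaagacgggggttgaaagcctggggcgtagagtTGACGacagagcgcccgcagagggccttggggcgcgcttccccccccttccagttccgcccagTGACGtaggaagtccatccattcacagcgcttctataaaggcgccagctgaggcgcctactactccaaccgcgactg

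Counted back from the start of transcription, the 4 matches of *Nr4a1* began at -233, -213, -69 and -40, and those of *Sik1* at -248, -203, -125 and -114. The matches of *Nr4a2* began at -200, -144, -123 and -111, and those of *Fos* at -140 and -77. The 250-base windows rest on the gene starts in the deposited table. For *Nr4a3* that start was a start codon, 6095 bases inside the longest transcript annotated by GENCODE, so its window was not the promoter and its 1884 counted bases left out the untranslated exons. For *Crem*, a gene with 26 annotated starts, other starts lay up to 10157 bases upstream, and the counts pool its activators with the inducible repressors made from an internal promoter. A match to letters is no evidence of binding, and the absence of a match says nothing beyond the window.

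**Figure D1:**
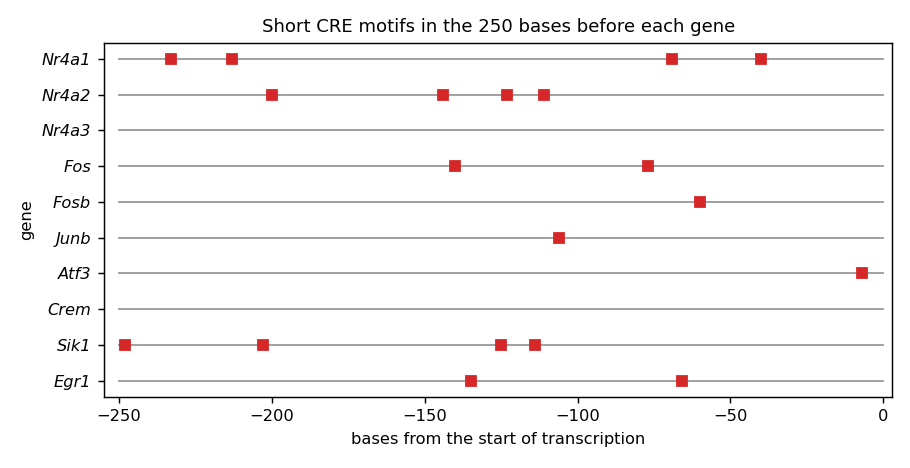
Map of the matches to TGACG or CGTCA (squares) in the 250 bases before each of the 10 genes, with distance from the start of transcription on the horizontal axis (bases). *Nr4a1*, *Nr4a2* and *Sik1* have 4 squares each, and the windows of *Nr4a3* (which is not its promoter) and *Crem* have none.

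In chow control mice, the unstimulated baseline, the genes differed widely in level per length of exon. On the scale of CPM per kb, mean ± SD over 5 mice, *Nr4a1* was highest at 47.6 ± 11.1 and *Junb* followed at 19.6 ± 5.15. *Nr4a2*, at 7.66 ± 1.34, *Egr1*, at 6.69 ± 1.02, *Crem*, at 5.88 ± 0.977, and *Sik1*, at 4.31 ± 0.981, formed a middle group, in which neighbours did not differ by more than the sum of their SDs. *Atf3* was at 1.86 ± 0.715 and *Fos* at 1.49 ± 0.423, and these were not separated either. *Nr4a3*, at 0.275 ± 0.242, and *Fosb*, at 0.179 ± 0.0811, rested on at most 11 counts per library.

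**Figure D2:**
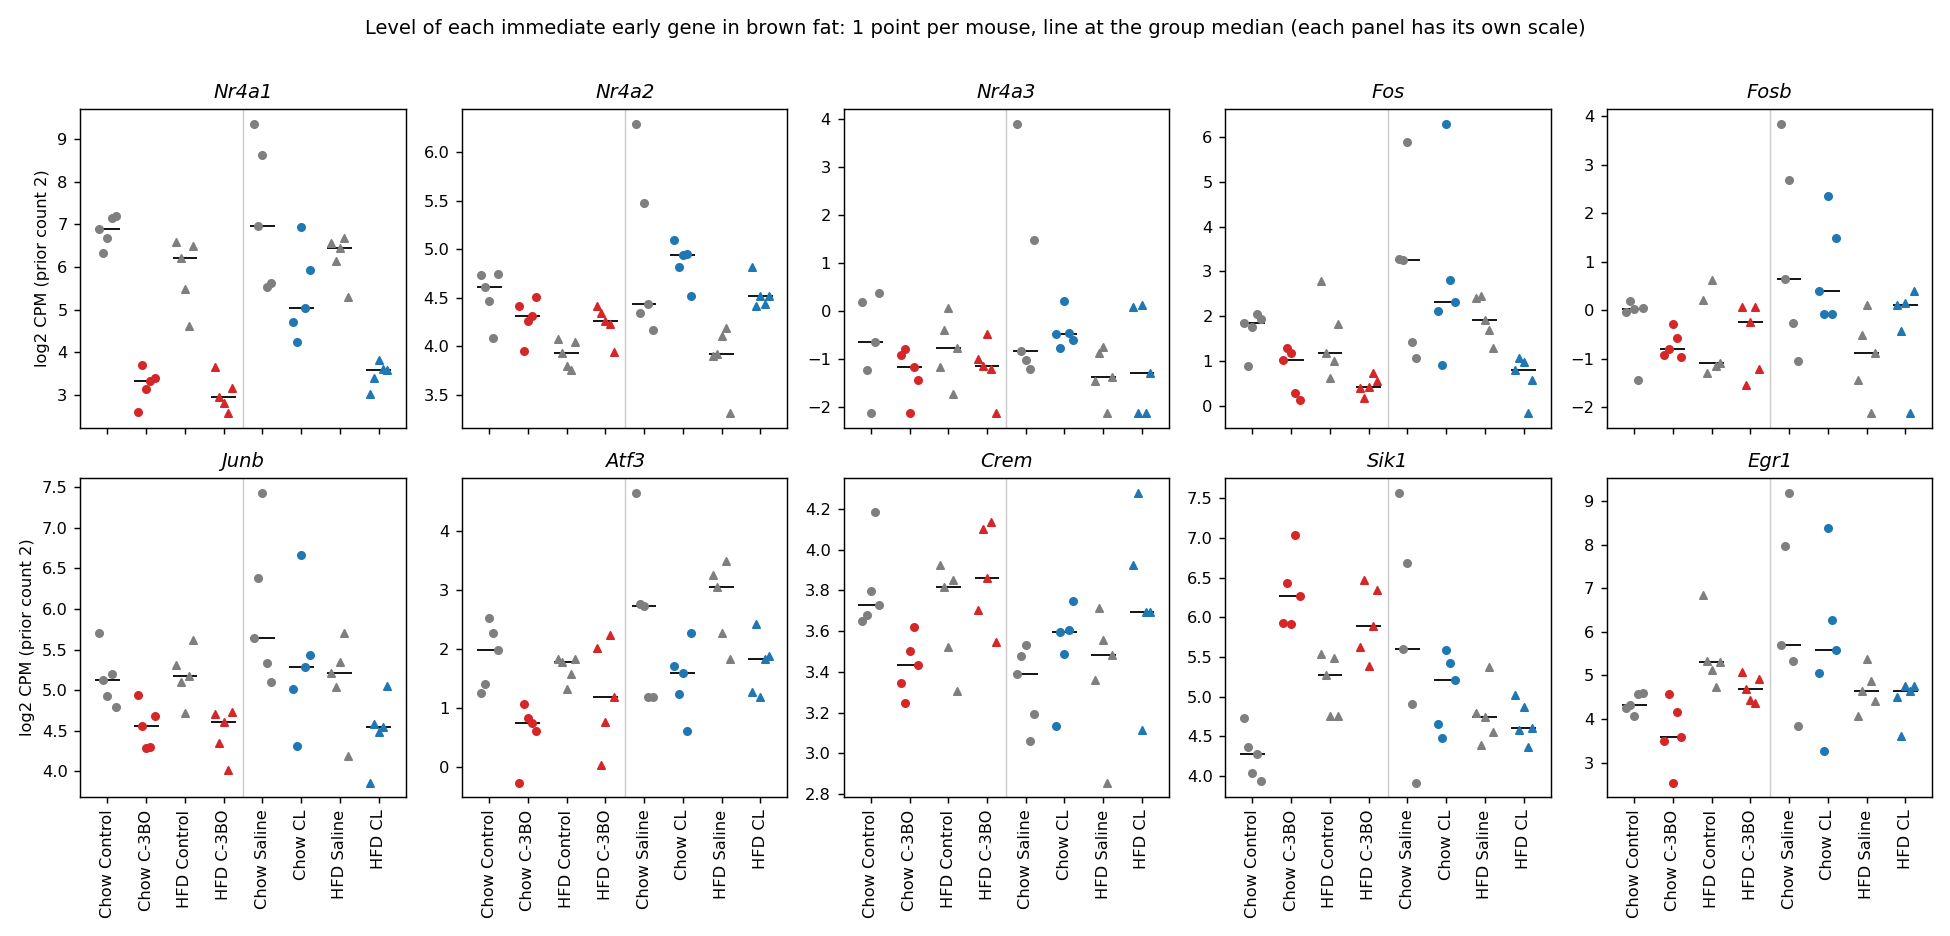
Level of each gene in each of the 40 mice, as log2 CPM with a prior count of 2, by group (grey, controls or saline; red, C-3BO; blue, CL; circles, chow; triangles, HFD; line, group median). *Nr4a1* lies far below its controls in both C-3BO groups and in the HFD CL mice, *Sik1* lies above its controls in the chow C-3BO mice, and several genes are scattered widely in the chow saline mice and in 1 chow CL mouse.

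Each comparison used the quasi-likelihood test of edgeR, adjusted by Benjamini-Hochberg over 13277 tested genes, and a gene was called at an adjusted p under 0.05. With CL on chow, 0 of the 9 genes were called higher and 3 lower, beside 9.16% of all tested genes called higher and 6.13% lower. With CL on HFD, 0 were called higher and 1 lower, beside 12.7% and 10.8% of all genes. In C-3BO mice on chow, 1 was called higher and 2 lower, beside 15.8% and 15.9%. In C-3BO mice on HFD, 0 were called higher and 1 lower, beside 19.3% and 15.5%. At an unadjusted p under 0.05, the number higher was 0 with CL on chow, 1 with CL on HFD and 1 in the C-3BO comparison on HFD, where DESeq2 called 0, 1 and 0 higher. The median log2 fold change of the 9 genes was -0.91 with CL on chow, -0.23 with CL on HFD, -0.62 in C-3BO mice on chow and -0.28 in C-3BO mice on HFD, where the medians of all tested genes were -0.01, -0.01, -0.03 and -0.02. The genes named in the calls were *Nr4a1* in each of the 4 comparisons, *Atf3* and *Sik1* with CL on chow, and *Atf3* and *Sik1* in C-3BO mice on chow. Where groups are said below not to overlap, this is a description. How often groups did not overlap over all genes was not counted.

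**Figure D3:**
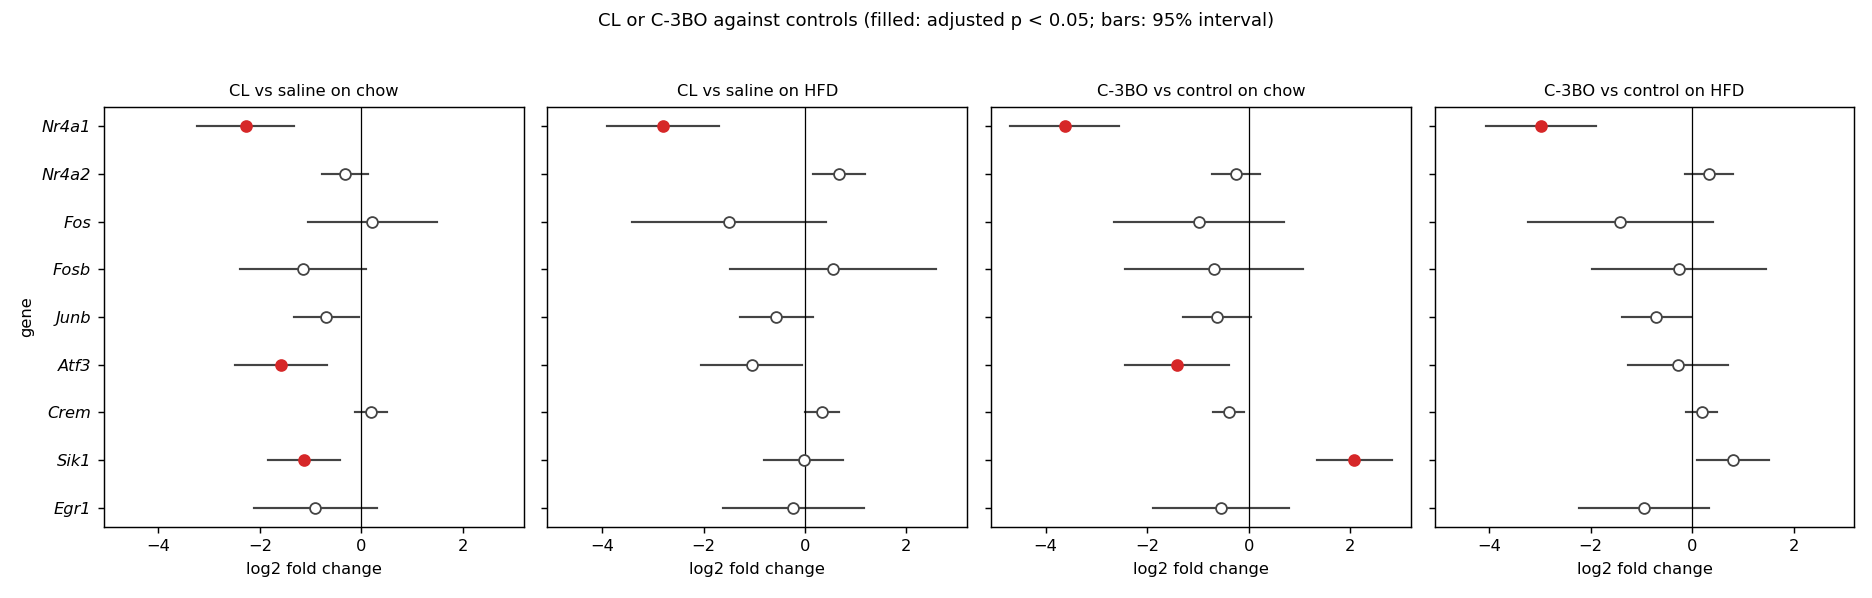
Log2 fold change with its approximate 95% interval (horizontal axis) of the 9 tested genes in the 4 comparisons of CL or C-3BO with controls, with calls filled. *Nr4a1* is the gene with a filled point in all 4 panels, from -2.28 to -3.63, and *Sik1* lies to the right of 0 in C-3BO mice on chow, at 2.09, and to the left with CL on chow, at -1.13.

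*Nr4a1* (NM_010444, mm9 chr15:101097277-101105225, plus strand) encodes an orphan nuclear receptor induced by cAMP in many tissues. On chow its levels were 119, 80.3, 102, 142 and 146 CPM in the control mice and 5.88, 12.8, 8.60, 9.74 and 10.3 CPM in the C-3BO mice. Every C-3BO mouse was below every control mouse, and the log2 fold change was -3.63 ± 0.55 (SE, adjusted p = 3.8e-06). On HFD the control mice had 96.2, 74.1, 44.7, 24.3 and 90.1 CPM and the C-3BO mice 12.4, 7.56, 6.85, 5.70 and 8.81 CPM, again without overlap, with a log2 fold change of -2.98 ± 0.56 (adjusted p = 6.1e-05). Without the shallow HFD C-3BO replicates 4 and 5 the latter was -2.89 (adjusted p = 0.0017). Some markers of other cell types were also called in these comparisons. On HFD, 4 of 6 endothelial markers were called lower in C-3BO mice, with a sum of 1333 to 1474 CPM against 1593 to 2065 CPM, and 3 of 4 vascular smooth muscle markers, with a sum of 60.9 to 107 CPM against 124 to 164 CPM. So were 2 of 6 preadipocyte and fibroblast markers and 1 of 8 macrophage markers. Over all genes, 15.5% were called lower and 19.3% higher on HFD. All 8 liver markers were called higher, with a sum of 1.81 to 404 CPM (median 3.13) against 1.17 to 2.16 CPM. Of these, *Alb* was at 294 and 272 CPM in the shallow C-3BO libraries 4 and 5. In C-3BO libraries 1, 2 and 3 it was at 1.36, 0.564 and 1.59 CPM. The rise of liver markers thus went with the difference between libraries described above. On chow, 2 of 6 endothelial and 1 of 6 preadipocyte and fibroblast markers were lower, beside 15.9% of all genes. The part of these cell types in the results for *Nr4a1* and the other members was not tested.

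With CL the direction of *Nr4a1* was the same. On HFD the saline mice had 94.2, 69.7, 87.5, 102 and 38.9 CPM of *Nr4a1* and the CL mice 7.90, 10.4, 14.0, 12.05 and 11.8 CPM. The groups did not overlap, and the log2 fold change was -2.80 ± 0.56 (adjusted p = 0.00032). In the same comparison 4 of 6 preadipocyte and fibroblast markers were called lower and 1 higher, with a sum of 620 to 1047 CPM against 993 to 1587 CPM. Of 8 macrophage markers 3 were lower, with a sum of 151 to 454 CPM against 359 to 866 CPM, and of 6 endothelial markers 2 were higher, with a sum of 1439 to 1946 CPM against 1266 to 1382 CPM. Over all genes, 12.7% were called higher and 10.8% lower. The part of these cell types in the result was not tested. On chow the saline mice were scattered, at 656, 125, 394, 46.4 and 49.4 CPM, and the CL mice had 26.1, 18.9, 123, 32.4 and 60.9 CPM. Here CL mice 3 and 5 lay above saline mice 4 and 5, and the log2 fold change was -2.28 ± 0.49 (adjusted p = 0.0011). Without saline mouse 1 it was -1.56 (adjusted p = 0.017), without CL mouse 3 it was -2.87 (adjusted p = 0.00017), and a fit of these 10 libraries alone gave -2.30 (adjusted p = 0.056). A difference between the genetic and the drug effect was not shown for *Nr4a1*: the log2 fold change in C-3BO mice less that with CL was -1.35 on chow (95% interval -2.72 to 0.03) and -0.19 on HFD (95% interval -1.72 to 1.34). The order of the groups by median was chow saline, chow control, HFD saline, HFD control, chow CL, HFD CL, chow C-3BO and HFD C-3BO, and neighbours in this order overlapped in range except chow CL and HFD CL.

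Of the paralogues of *Nr4a1*, *Nr4a2* was called in none of the 4 comparisons and *Nr4a3* could not be tested in the same fit. *Nr4a2* (NM_001139509, chr2:56959637-56976414, minus strand) had a log2 fold change of -0.25 ± 0.24 (adjusted p = 0.46) in C-3BO mice on chow and of 0.33 ± 0.24 (adjusted p = 0.30) on HFD. With CL on HFD it was at 27.9, 21.0, 22.7, 21.5 and 22.7 CPM against 14.7, 14.95, 17.0, 18.05 and 9.68 CPM with saline. Every CL mouse was above every saline mouse, but the log2 fold change of 0.68 ± 0.26 did not pass (adjusted p = 0.057, and 0.045 by DESeq2). Fits of the libraries of a comparison alone gave *Nr4a2* 0.66 with CL on HFD (adjusted p = 0.0058) and 0.33 in C-3BO mice on HFD (adjusted p = 0.043). The 18 counts behind the value of HFD saline mouse 4 were the fewest of any mouse. *Nr4a3* received 0 to 137 counts per library. It stood out in chow saline mouse 1, with 137 counts (14.8 CPM), and in chow saline mouse 5, with 30 counts (2.55 CPM), and had at most 12 counts in each of the other 38 libraries. Fitted without the filter on low counts, *Nr4a3* was lower with CL on chow, with a log2 fold change of -2.74 (adjusted p = 0.016). Whether the paralogues differ from *Nr4a1* in their response was not tested.

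*Sik1* (chr17:31981195-31992737, minus strand), the kinase that restrains CRTC coactivators, went the other way in C-3BO mice. On chow the control mice had 26.4, 20.4, 16.2, 19.2 and 15.04 CPM and the C-3BO mice 60.7, 85.9, 60.3, 131 and 76.9 CPM. The groups did not overlap, and the log2 fold change was 2.09 ± 0.37 (adjusted p = 4.8e-05). On HFD the control mice were at 46.4, 38.4, 26.8, 44.5 and 26.7 CPM and the C-3BO mice at 49.0, 88.7, 41.6, 59.3 and 81.1 CPM. C-3BO mouse 3 lay inside the control range and the other 4 above it, and the log2 fold change of 0.80 ± 0.36 did not pass (adjusted p = 0.081). A fit of these HFD libraries alone gave 0.80 with an adjusted p of 0.0095. The log2 fold change of *Sik1* in C-3BO mice was smaller on HFD by a difference of -1.29 (95% interval -2.29 to -0.28, adjusted p = 0.20), so a difference between diets was not shown.

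With CL on chow, *Sik1* was at 25.1, 22.1, 47.8, 42.7 and 36.9 CPM against 190, 48.1, 102, 29.8 and 14.9 CPM with saline. The saline mice spanned a range of 12.7-fold that held all 5 CL mice, and the log2 fold change was -1.13 ± 0.36 (adjusted p = 0.027). Without saline mouse 1 it was -0.48 (adjusted p = 0.34), and without saline mouse 3, CL mouse 1 or CL mouse 2 the adjusted p was 0.071, 0.075 and 0.081. A fit of these 10 libraries alone gave -1.15 (adjusted p = 0.17). With CL on HFD the log2 fold change of *Sik1* was -0.03 ± 0.40 (adjusted p = 0.97). Set against each other on chow, the log2 fold change of *Sik1* in C-3BO mice less that with CL was 3.22 ± 0.52 (adjusted p = 0.00014), and it lay between 2.59, without chow saline mouse 1, and 3.49 in all 29 alternatives run. This was the difference of effects that passed among the members: 1 of 9 was called higher and 0 lower, beside 2.83% and 3.40% of all genes, with 1 of 9 lower at an unadjusted p under 0.05 and 0 by DESeq2. These effects come from separate cohorts with separate controls. On chow those controls differed, *Sik1* being higher in saline than in uninjected control mice by a log2 fold change of 1.97 (adjusted p = 0.00043).

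No other difference of effects passed. When the changes in C-3BO mice were compared between the diets (HFD less chow), 0 of 9 members were called higher and 0 lower, beside 1.36% and 0.731% of all genes, with 1 and 1 at an unadjusted p under 0.05. When the changes with CL were compared in the same way, the counts were 0 and 0, beside 0.0151% and 0% of all genes, with 2 and 0 at an unadjusted p under 0.05. When C-3BO was compared with CL among HFD mice, they were 0 and 0, beside 0.753% and 1.05%, with 0 and 0 unadjusted. DESeq2 also called 0 members in these 3 comparisons.

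*Atf3* (chr1:192994176-193007212, minus strand) encodes a stress-induced transcription factor of the ATF and CREB family. In C-3BO mice on chow it had 0.603, 1.85, 1.55, 1.44 and 1.29 CPM against 2.15, 2.43, 5.48, 4.59 and 3.73 CPM in the controls. The groups did not overlap, and the log2 fold change was -1.41 ± 0.52 (adjusted p = 0.036). This call was near the threshold: the adjusted p lay between 0.051 and 0.088 without C-3BO mouse 1, 3, 4 or 5 or control mouse 3, 4 or 5. With CL on chow, *Atf3* was at 3.05, 2.13, 2.77, 1.30 and 4.57 CPM against 24.7, 6.57, 6.35, 2.03 and 2.04 CPM with saline. The saline value of mouse 1 was far above the rest, and the log2 fold change of -1.58 ± 0.46 (adjusted p = 0.016) became -0.62 (adjusted p = 0.33) without it. The adjusted p was 0.060 without CL mouse 4 and 0.11 in a fit of these 10 libraries alone. On HFD, *Atf3* was at -1.05 ± 0.51 with CL (adjusted p = 0.13) and at -0.28 ± 0.50 in C-3BO mice (adjusted p = 0.70), both as log2 fold changes. A fit of the CL and saline libraries on HFD alone gave -1.06 (adjusted p = 0.032). With the summed skeletal muscle markers as a covariate, the calls of *Atf3* in chow mice were lost, at an adjusted p of 0.056 with CL and 0.058 in C-3BO mice. With CL on chow, 7 of the 8 muscle markers were lower, beside 6.13% of all genes. Their sum was 9.06 to 120 CPM against 8.76 to 2177 CPM with saline.

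*Crem*, which encodes the activators and repressors named above, had a narrow range of levels. Its group means lay between 9.92 and 14.6 CPM in all 8 groups. In C-3BO mice on chow it was at 9.95, 9.26, 11.1, 12.1 and 10.6 CPM against 12.3, 12.6, 13.7, 17.9 and 13.04 CPM in the controls. Every C-3BO mouse was below every control mouse, but the log2 fold change was small, -0.39 ± 0.16, and did not pass (adjusted p = 0.055, and 0.041 by DESeq2). The other 3 treatment comparisons gave *Crem* log2 fold changes of 0.18 to 0.33, none called.

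In the main fit the classical AP-1 genes and *Egr1* were not called in any of the 4 treatment comparisons. That fit shares its estimate of spread over all 8 groups. Fits of the libraries of a comparison alone called some of them lower. In C-3BO mice these were *Fos* (adjusted p = 0.039) and *Junb* (0.023) on chow, and *Fos* (0.026), *Junb* (0.0055) and *Egr1* (0.037) on HFD. With CL, *Fos* was called on HFD (adjusted p = 0.0051) and none of them on chow. *Fos* (chr12:86814851-86818219, plus strand) encodes an AP-1 subunit that is hardly expressed in resting cells. On HFD it was at 1.51, 1.87, 1.74, 0.660 and 1.27 CPM with CL and at 5.10, 5.19, 3.52, 3.01 and 2.22 CPM with saline. All 5 CL mice were lower, but each *Fos* value rested on 3 to 37 counts, and the log2 fold change of -1.50 ± 0.98 did not pass (adjusted p = 0.29). *Fos* in C-3BO mice had log2 fold changes of -0.98 ± 0.86 on chow (adjusted p = 0.41) and -1.41 ± 0.93 on HFD (adjusted p = 0.24). *Junb* (chr8:87500808-87502647, minus strand), an abundant partner of Fos proteins, had log2 fold changes between -0.57 and -0.71 in the 4 comparisons, with adjusted p of 0.11 to 0.28. *Egr1*, a zinc finger factor induced by growth factor signals as well as by cAMP, had log2 fold changes between -0.23 and -0.95, with adjusted p of 0.27 to 0.85. *Fosb* (chr7:19888045-19895394, minus strand), another AP-1 subunit, had 0 to 19 counts in each library outside the chow injected mice, and its log2 fold changes lay between -1.15 and 0.55, with adjusted p of 0.23 to 0.85.

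On chow the injected mice differed sharply from each other in these genes. *Egr1* was at 51.8, 252, 582, 40.3 and 14.0 CPM in the saline mice and at 32.9, 9.49, 333, 77.3 and 48.1 CPM in the CL mice. *Fos* was at 9.40, 9.36, 59.0, 2.43 and 1.87 CPM in the saline mice and at 4.13, 1.66, 78.3, 6.77 and 4.75 CPM in the CL mice. Saline mouse 3 and CL mouse 3 held the peaks of both genes and of *Junb*, at 173 and 102 CPM. Saline mouse 1 was instead the highest of its group in 6 members, *Nr4a1*, *Nr4a2*, *Nr4a3*, *Fosb*, *Atf3* and *Sik1*.

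The log2 fold change of *Fos* with CL on chow was 0.22 ± 0.65 (adjusted p = 0.87) with all mice and -1.90 (adjusted p = 0.023) without CL mouse 3. Its sign also turned without saline mouse 4 or 5, at -0.06 (adjusted p = 0.97) and -0.07 (adjusted p = 0.96). Without CL mouse 3 *Egr1* was at -2.15 (adjusted p = 0.015) and *Junb* at -1.18 (adjusted p = 0.0097), and the number of members called lower with CL on chow went from 3 to 6. Without saline mouse 1 it went from 3 to 1. CL mouse 3 had *Gpr3* at 9.15 CPM, where the other 19 injected mice had at most 1.18 CPM, and its *Ucp1* was at 5943 CPM. Saline mouse 1 had *Hspa1b*, a heat shock gene, at 35.1 CPM, against at most 9.02 CPM in each of the other 39 mice, and summed heat shock genes at 975 CPM, against 580 to 730 CPM in the other 4 saline mice. Whether these measures have a part in the spread of the immediate early genes was not tested.

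Saline-injected mice on chow were also set beside uninjected control mice on chow. Age, mouse line and injection cannot be told apart in this comparison. Of the 9 members, 5 were called higher and 1 lower, beside 6.66% and 8.56% of all genes. *Egr1*, at 16.6 to 23.8 CPM in the uninjected mice, was higher by a log2 fold change of 3.19 ± 0.68 (adjusted p = 0.0014). *Fosb* was higher by 2.76 ± 0.71 (adjusted p = 0.0068), *Fos* by 2.39 ± 0.73 (adjusted p = 0.021), *Sik1* by 1.97 ± 0.37 (adjusted p = 0.00043) and *Junb* by 1.07 ± 0.33 (adjusted p = 0.024), each as a log2 fold change. *Crem* was lower, with a log2 fold change of -0.49 ± 0.16 (adjusted p = 0.030) and all saline mice below all uninjected mice. The ranges of the 5 genes called higher overlapped between the groups.

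Several of these calls were lost in a fit of the saline and uninjected chow libraries alone or without 1 mouse. The fit of these libraries alone gave *Fos* 2.39 (adjusted p = 0.078), *Junb* 1.07 (adjusted p = 0.10) and *Crem* -0.49 (adjusted p = 0.064). Without saline mouse 3 the log2 fold changes of *Fos* and *Junb* were 0.88 (adjusted p = 0.42) and 0.53 (adjusted p = 0.26), and without saline mouse 1 that of *Fosb* was 1.68 (adjusted p = 0.096). That of *Egr1* was 2.13 (adjusted p = 0.018) without saline mouse 3. For *Junb* the adjusted p was 0.063 and 0.057 without control mouse 3 and 5. For *Crem* it was 0.13 without control mouse 4, 0.081 without saline mouse 4 and 0.065 without saline mouse 5. With library totals alone the adjusted p of *Crem* was 0.066. *Sik1* passed in all 19 alternatives, with a log2 fold change of 1.33 (adjusted p = 0.0046) without saline mouse 1. Skeletal muscle transcripts moved with this comparison: 6 of the 8 markers were lower in saline-injected mice, beside 8.56% of all genes. Their sum was 8.76 to 2177 CPM against 651 to 8405 CPM. Of 6 preadipocyte and fibroblast markers 2 were higher, beside 6.66% of all genes. With the muscle sum as a covariate, *Egr1* had a log2 fold change of 1.99 (adjusted p = 0.11), *Fos* of 1.12 (adjusted p = 0.46) and *Junb* of 0.52 (adjusted p = 0.38), and *Sik1* of 1.87 (adjusted p = 0.0026).

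Between the diets, some members were lower on HFD in the injected mice. Among saline mice 0 of the 9 members were called higher and 6 lower on HFD, beside 7.45% and 8.04% of all genes, and among CL mice 0 were called higher and 4 lower, beside 10.9% and 12.7%. At an unadjusted p under 0.05 and by DESeq2, 0 members were higher in either. All these HFD libraries belonged to the shallow ones described above, so that diet and library type cannot be told apart. *Crem* and *Atf3* were not called in either, with log2 fold changes of 0.15 and -0.29 in saline mice and of 0.28 and 0.24 in CL mice. In saline mice 7 of 8 macrophage markers were higher on HFD, with a sum of 359 to 866 CPM against 171 to 348 CPM on chow, as were 3 of 6 endothelial and 2 of 6 preadipocyte and fibroblast markers. In CL mice 6 of 6 endothelial markers were higher on HFD, with a sum of 1439 to 1946 CPM against 875 to 1141 CPM, and 1 of 8 macrophage markers. In both, 8 of 8 liver markers were higher, and all the HFD libraries here were shallow ones that carried *Alb*. The part of these cell types in the results was not tested. In saline mice *Nr4a2* had a log2 fold change of -1.32 ± 0.25 (adjusted p = 0.00051), a call kept in all 19 alternatives. *Egr1* was at -2.83 ± 0.69 (adjusted p = 0.0046), *Sik1* at -1.54 ± 0.39 (adjusted p = 0.0054), *Fosb* at -3.32 ± 0.83 (adjusted p = 0.0057), *Nr4a1* at -1.72 ± 0.49 (adjusted p = 0.014) and *Junb* at -1.14 ± 0.35 (adjusted p = 0.021). Without chow saline mouse 1, *Nr4a1* was at -0.98 (adjusted p = 0.16), *Sik1* at -0.88 (adjusted p = 0.082) and *Fosb* at -2.23 (adjusted p = 0.061), and 3 members were called. Without chow saline mouse 3, *Egr1* was at -1.74 (adjusted p = 0.055) and *Junb* at -0.58 (adjusted p = 0.21). The adjusted p of *Junb* was also 0.051 and 0.070 without HFD saline mouse 2 and 5. A fit of the saline libraries alone gave adjusted p of 0.098 for *Nr4a1*, 0.093 for *Junb* and 0.083 for *Sik1*.

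In CL mice, *Nr4a1* was lower on HFD with a log2 fold change of -2.24 ± 0.55 (adjusted p = 0.0027), with all 5 HFD mice below all 5 chow mice and the call kept in all 19 alternatives, at -1.65 (adjusted p = 0.023) without chow CL mouse 3. *Fos* was at -3.78 ± 0.87 (adjusted p = 0.0015), *Egr1* at -2.16 ± 0.68 (adjusted p = 0.018) and *Junb* at -1.02 ± 0.35 (adjusted p = 0.030). Without chow CL mouse 3 these 3 were at -1.66 (adjusted p = 0.083), -0.91 (adjusted p = 0.30) and -0.53 (adjusted p = 0.25), and *Nr4a1* was then the 1 member called. For *Junb* the adjusted p was 0.086, 0.052, 0.053 and 0.053 without HFD CL mouse 1, 2, 3 and 4.

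In the uninjected cohort 1 member was called between the diets in each genotype. In control mice 0 were called higher and 1 lower, beside 15.4% and 17.5% of all genes, with 1 higher at an unadjusted p under 0.05 and 0 by DESeq2. In C-3BO mice 1 was called higher and 0 lower, beside 13.5% and 12.2%, with 0 lower at an unadjusted p under 0.05 and by DESeq2. The gene called in control mice was *Nr4a2*, at 16.6, 15.02, 13.7, 13.3 and 16.3 CPM on HFD against 26.4, 24.2, 21.9, 16.7 and 26.6 CPM on chow. The groups did not overlap, and the log2 fold change was -0.63 ± 0.24 (adjusted p = 0.040). The adjusted p was 0.053 to 0.085 without control mouse 1, 2, 3 or 5 on chow or mouse 2, 3 or 4 on HFD, and with library totals alone the log2 fold change of *Nr4a2* was -0.47 (adjusted p = 0.13). *Sik1* and *Egr1* were higher on HFD in every control mouse than in every chow control mouse, with log2 fold changes of 0.91 ± 0.37 (adjusted p = 0.055) and 1.31 ± 0.65 (adjusted p = 0.12) that did not pass. The gene called in C-3BO mice was *Crem*, with a log2 fold change of 0.46 ± 0.16 (adjusted p = 0.033) and overlapping groups. For *Crem* the adjusted p was 0.053 to 0.11 without chow C-3BO mouse 1, 2, 3 or 5 or HFD C-3BO mouse 2 or 4, and 0.070 without HFD C-3BO mice 4 and 5. All 6 endothelial markers were higher and all 8 skeletal muscle markers lower on HFD in both genotypes, the latter, from a summed 651 to 8405 CPM to 4.68 to 188 CPM in control mice. In control mice 3 of 4 vascular smooth muscle markers were also higher. In C-3BO mice 8 of 8 liver markers were called higher. Of these, *Alb* was at 294 and 272 CPM in the shallow HFD libraries 4 and 5, and at most 1.62 CPM in the 28 deeper libraries. With the muscle sum as a covariate the calls of *Nr4a2* and *Crem* were lost, at adjusted p of 0.39 and 0.33.

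**Figure D4:**
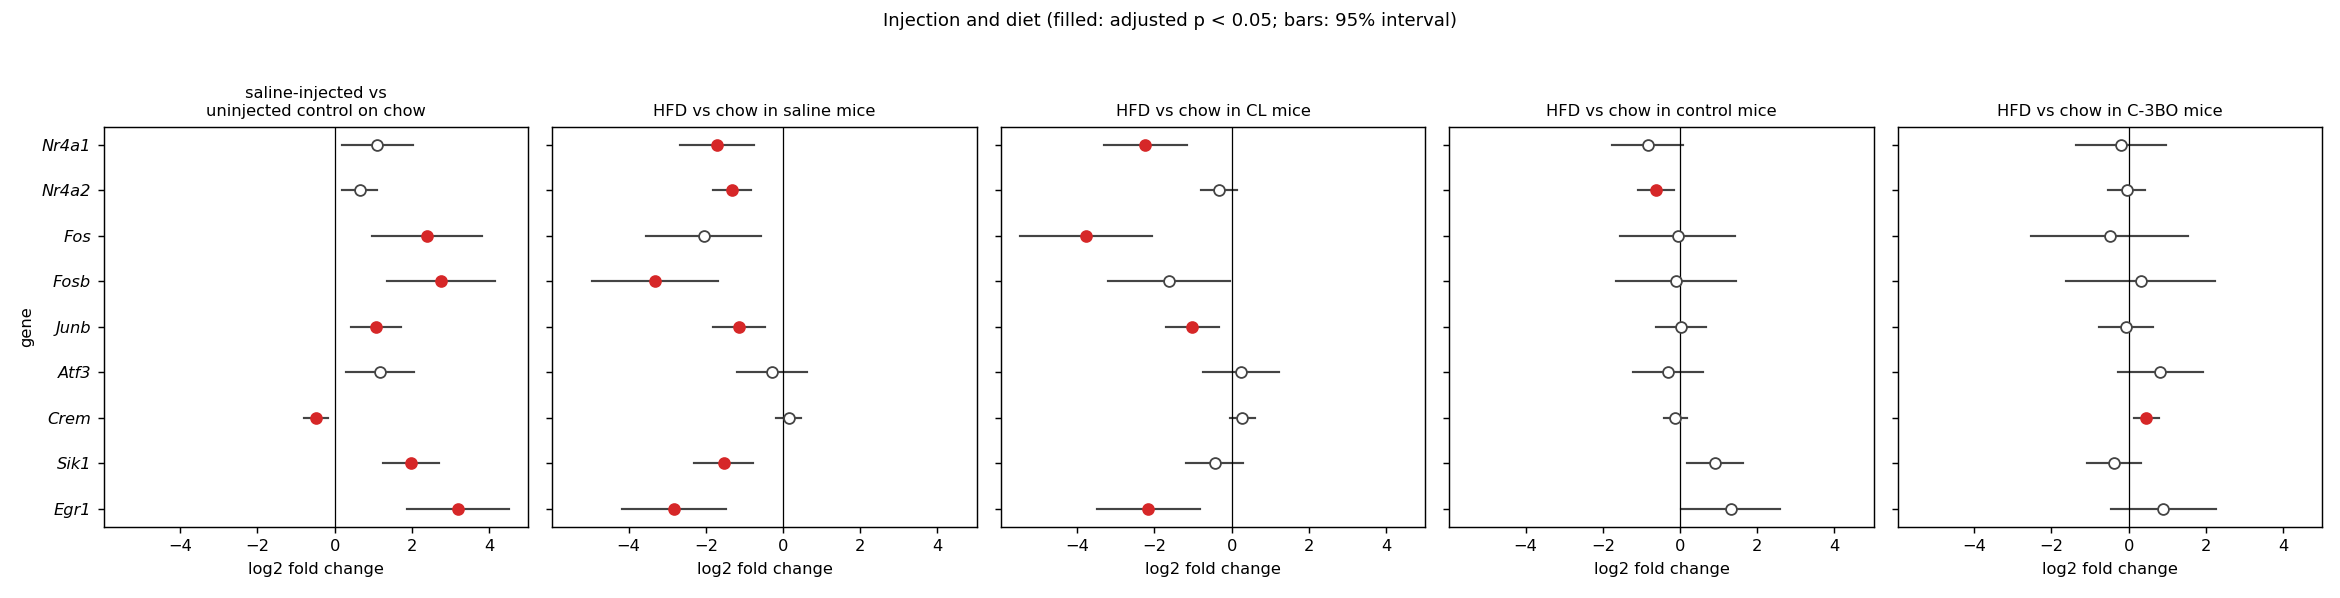
Log2 fold change with its approximate 95% interval (horizontal axis) of the 9 tested genes for saline injection on chow and for HFD against chow in each kind of mouse, with calls filled. The intervals of *Fosb* in CL mice and *Egr1* in control mice exclude 0, though their unadjusted edgeR p was 0.052 and 0.051. The left panel has 5 filled points above 0 and *Crem* below 0, and the panels for saline and CL mice on HFD have 6 and 4 filled points, all below 0.

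Apart from group differences, some of the members varied together from mouse to mouse. After subtraction of group means, 40 of the 45 pairs had a Pearson r above 0 over the 40 mice, with a median of 0.414. In a permutation test within groups, 7 pairs passed an adjusted p of 0.05, none of them with *Nr4a2*, *Nr4a3*, *Fosb* or *Crem*. With library totals alone, 13 pairs passed in place of 7. Pairs of genes outside the list were not counted, so these numbers cannot be called particular to the members. The strongest pair was *Fos* with *Egr1* (r = 0.79, permutation p = 0.00063, adjusted p = 0.0095, Spearman rho = 0.37, permutation p = 0.054). It was followed by *Junb* with *Egr1* (r = 0.76, permutation p = 0.00016, adjusted p = 0.0072, rho = 0.55, permutation p = 0.0025) and *Fos* with *Junb* (r = 0.75, permutation p = 0.00039, adjusted p = 0.0088, rho = 0.45, permutation p = 0.013). *Nr4a1* passed with *Fos* (r = 0.71, permutation p = 0.0012, adjusted p = 0.011, rho = 0.56, permutation p = 0.0020) and *Sik1* (r = 0.69, permutation p = 0.0035, adjusted p = 0.026, rho = 0.51, permutation p = 0.0084). It also passed with *Atf3* (r = 0.64, permutation p = 0.0010, adjusted p = 0.011, rho = 0.51, permutation p = 0.0037) and *Junb* (r = 0.62, permutation p = 0.0041, adjusted p = 0.026, rho = 0.55, permutation p = 0.0027). Without the 2 mice farthest from the median of the gene named earlier in the list, the r of these 7 pairs was 0.46 to 0.76. The spread was widest in the chow injected mice. The SD of *Fos* was 147% of its mean with saline and 173% with CL there, against 16.8 to 71.3% in the other groups. For *Egr1* it was 128% and 132%, against 15.2 to 70.2%. The correlations were not run without these groups. *Crem* had r between -0.08 and 0.18 with every other member. By Spearman rho, 6 pairs passed, and *Fos* with *Egr1* was not among them (adjusted p = 0.20).

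**Figure D5:**
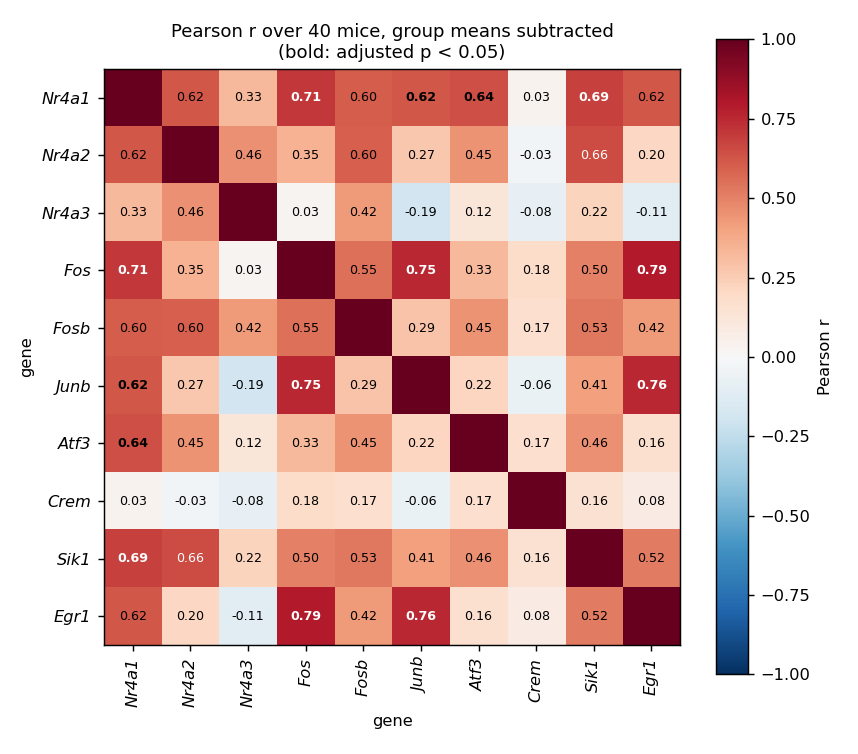
Pearson r between each pair of genes over 40 mice after subtraction of group means, printed in each square, with pairs past an adjusted p of 0.05 in bold. *Fos*, *Junb* and *Egr1* form a block of 0.75 to 0.79, *Nr4a1* is linked to 4 genes, and the row of *Crem* is near 0.

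The genes outside the list whose log2 CPM followed a member most closely over the 40 mice, group differences included, were sought for 4 members, as a description. For *Fos* they were *Zfp36* (r = 0.77), *Ier2* (r = 0.77) and *Csrnp1* (r = 0.73), which are themselves immediate early genes. For *Egr1* they were *Ier2* (r = 0.86), *Nfkbiz* (r = 0.78) and *Zfp36* (r = 0.77). For *Nr4a1* they were *Strip2* (r = 0.88), *H2-D1* (r = 0.88) and *H2-K1* (r = 0.87). The latter pair are closely related class I histocompatibility genes that share sequence, so their counts are uncertain. For *Crem* they were *Tex9* (r = 0.67), *Nck1* (r = 0.65) and *Xrcc4* (r = 0.63).

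Of a list of 32 other immediate early genes, 30 were tested. With CL, 1 was called higher and 9 lower on chow and 0 and 8 on HFD (edgeR, with 2 higher on HFD at an unadjusted p under 0.05). In C-3BO mice, 3 were called higher and 11 lower on chow and 2 and 10 on HFD. The shares of all genes called lower were 6.13, 10.8, 15.9 and 15.5% in that order, and the median log2 fold changes of the list were -0.46, -0.43, -0.61 and -0.30, with 25, 23, 23 and 18 of the 30 below 0. On HFD against chow, 6 of the list were higher and 1 lower in control mice and 7 and 0 in C-3BO mice (0 lower by edgeR, 1 at an unadjusted p under 0.05), beside 15.4% and 13.5% of all genes called higher, with medians of 0.37 and 0.53. *Gadd45b*, a stress sensor in the same family as *Gadd45g*, had log2 fold changes of -3.43 ± 0.38 (adjusted p = 1.2e-08) and -3.17 ± 0.40 (adjusted p = 1.1e-07) in C-3BO mice and of -2.60 ± 0.41 (adjusted p = 9.5e-06) with CL on HFD. Its group medians on chow were 24.9 CPM in control and 2.51 CPM in C-3BO mice. *Myc*, a growth-promoting transcription factor, was lower in all 4, with log2 fold changes of -2.57 ± 0.38 and -2.05 ± 0.35 in C-3BO mice and of -1.34 ± 0.33 and -1.17 ± 0.36 with CL, on chow and HFD. With CL on chow the largest changes were in *Egr3*, -2.12 ± 0.56 (adjusted p = 0.0080), and *Arc*, -1.91 ± 0.49 (adjusted p = 0.0060). In saline-injected against uninjected mice on chow, 11 of the 30 were higher and 1 lower, beside 6.66% and 8.56% of all genes. The largest changes were in *Egr3* at 2.73 ± 0.59 (adjusted p = 0.0015) and *Gadd45g* at 1.85 ± 0.37 (adjusted p = 0.00082). *Egr3* ranged from 0.765 to 25.2 CPM among the chow saline mice. Saline mouse 3 was the highest of its group for 14 of the 32 genes and mouse 1 for 9. The count of mouse 1 includes *Egr4*, which had 0 counts in all chow saline mice, because a tie went to the first mouse. Values without saline mice 1 and 3 are not given for this list.

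Among 13 AP-1 and ATF partners, 11 were tested and 0 were called higher by edgeR in any of the 4 treatment comparisons, with 0 also at an unadjusted p under 0.05, while 3 and 2 were lower with CL and 4 and 3 in C-3BO mice, on chow and HFD in turn, beside the shares of all genes given for the other immediate early genes. *Jun*, which encodes the partner of the Fos proteins in AP-1, was lower in C-3BO mice, with log2 fold changes of -1.90 ± 0.36 on chow (adjusted p = 8.6e-05) and -1.33 ± 0.35 on HFD (adjusted p = 0.0027). *Mafk*, a small Maf protein, was lower in all 4, with log2 fold changes of -0.64, -1.06, -1.08 and -1.11. Of 13 CREB, CRTC and SIK genes, edgeR called 0 higher and 2 lower with CL on either diet (0 higher also at an unadjusted p under 0.05), 1 and 1 in C-3BO mice on chow and 1 and 2 on HFD. Over all genes the shares called higher and lower were 9.16% and 6.13%, 12.7% and 10.8%, 15.8% and 15.9%, and 19.3% and 15.5%. Among the calls, the largest log2 fold change was that of *Sik2* in C-3BO mice on chow, 0.80 ± 0.16 (adjusted p = 0.00013). *Sik2*, the SIK kinase that is abundant in fat, was at 313 CPM in these mice and 178 CPM in controls by median.

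Of 20 further CREB target genes 16 were tested, among them genes of the metabolic programme of brown fat. With CL, 3 were called higher and 2 lower on chow and 4 and 2 on HFD, and in C-3BO mice 7 and 4 on chow and 6 and 2 on HFD. The list includes *Gpr3* itself, the transgene, and the shares of all genes are those just given. *Ucp1*, the uncoupling protein, rose in all 4 comparisons, with log2 fold changes of 1.90 ± 0.27 (adjusted p = 5.7e-06) and 1.74 ± 0.27 (adjusted p = 8.3e-06) with CL and 2.38 ± 0.28 (adjusted p = 3.6e-08) and 1.52 ± 0.27 (adjusted p = 2.7e-05) in C-3BO mice, on chow and HFD. *Dio2*, the enzyme that activates thyroid hormone, rose by 2.22 ± 0.47 (adjusted p = 0.00057) with CL on HFD and by 1.57 ± 0.44 (adjusted p = 0.0062) and 2.65 ± 0.45 (adjusted p = 1.4e-05) in C-3BO mice. *Rgs2*, a regulator of G protein signalling, was among those that fell, with log2 fold changes of -2.25 ± 0.25 and -1.90 ± 0.25 in C-3BO mice on chow and HFD. *Nr4a1* and *Ucp1* had log2 fold changes of opposite sign in all 4 comparisons.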

How the data were processed

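RNA of brown adipose tissue from 40 male mice was sequenced after poly(A) selection on a HiSeq 1500. The authors aligned the reads to mm9 with STAR and deposited raw exon counts per gene for 20295 genes, made with HOMER and iRNA-seq; versions and the strand setting are not given in the sources used here. Counts were analysed with edgeR 4.0.16 (R 4.3.3): genes passing filterByExpr (minimum count 10) were kept, 13277 in all, libraries were scaled by TMM, and all 8 groups entered 1 quasi-likelihood fit with p-values adjusted by Benjamini-Hochberg and calls made at 0.05. Standard errors were the log2 fold change over the square root of F. Correlations used log2 CPM (prior count 2) with 100000 permutations within groups. Depth, 849126 to 15260516 counts, limits low genes. Alternatives were RLE factors, library totals, other filters, DESeq2 1.42.0, the libraries of a comparison alone, a replicate block, a muscle marker covariate (added after the data were seen) and leaving out each mouse. Within the other lists, the called genes with the largest changes were named. The steps were tested on simulated counts. The members and lists were chosen with earlier results of these data known.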

Additional observations from a re-analysis of the deposited data

Results flagged for a closer look

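Within groups of 5 mice, 11 of the 78 sets of values of a member examined (14.1%) held a mouse set apart by Dixon's test. In that test the gap to the next mouse is large for the range of the group. For independent, normally distributed values it gives about 1 in 20. The values here were CPM without logarithms and the sets share mice, so the share cannot show an excess over chance. In 10 of the 11 the mouse stood high. Of these, 7 came from the chow injected mice described above. In chow CL mouse 3, *Fos* was at 78.3 CPM (others 1.66 to 6.77), *Egr1* at 333 CPM (others 9.49 to 77.3), *Junb* at 102 CPM (others 19.7 to 42.9) and *Nr4a3* at 0.924 CPM (others 0.356 to 0.504). In chow saline mouse 1, *Atf3* was at 24.7 CPM (others 2.03 to 6.57) and *Nr4a3* at 14.8 CPM (others 0.203 to 2.55). In chow saline mouse 3, *Fos* was at 59.0 CPM (others 1.87 to 9.40).

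The remaining mice stood apart in 1 or 2 genes. Chow control mouse 4 was high in *Crem*, at 17.9 CPM (others 12.3 to 13.7), and was the mouse that stood low, in *Fosb*, at 0.139 CPM (others 0.744 to 0.912). *Egr1* was at 114 CPM in HFD control mouse 1 (others 26.5 to 39.7), and *Nr4a2* was at 27.9 CPM in HFD CL mouse 1 (others 21.0 to 22.7).

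On chow, the log2 fold change of *Sik1* in C-3BO mice against controls less that with CL against saline was 3.22 (edgeR, adjusted p = 0.00014). The 2 effects rest on different baselines from separate cohorts. Mean *Sik1* on chow was 19.4 CPM in uninjected control, 76.9 CPM in saline and 34.9 CPM in CL mice. Without saline mouse 1 the effect of CL was -0.48 (adjusted p = 0.34) and the difference of effects 2.59.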

How the results depend on the processing

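Of the 27 calls of a member in a comparison, 8 were kept in every alternative run for them. Depth limits *Nr4a3*, *Fosb*, *Fos* and *Atf3*, whose values rest on few counts, above all in the 12 shallow libraries. The cause of the changes below was not tested. Fitting the libraries of a comparison alone changed the number of members called with CL from 3 to 0 on chow and from 1 to 4 on HFD, in C-3BO mice from 3 to 5 on chow and from 1 to 6 on HFD, by HFD from 1 to 3 in control, from 1 to 2 in C-3BO and from 6 to 2 in saline mice, and by saline injection from 6 to 2. With CL on HFD, 2 members were called with at least 10 counts required in every library, by DESeq2 and with the replicate block, in each of which *Nr4a2* passed. With library totals alone, 2 were called in C-3BO mice on HFD, and the median over all genes (log2 fold change) moved to between -0.23 and -0.15 in the 4 treatment comparisons and to between 0.15 and 0.21 in the 4 diet comparisons. The share of calls that were higher then moved from 59.9, 54.0, 49.8 and 55.3% to 26.6, 27.9, 20.2 and 30.1% for CL and C-3BO, chow before HFD, and from 46.8, 52.6, 48.1 and 46.1% to 71.3, 81.7, 84.7 and 79.7% for HFD in control, C-3BO, saline and CL mice. The call of HFD in control mice was lost (0 members) without a filter and with the muscle covariate, and with library totals alone *Nr4a2* was lost (-0.47, adjusted p = 0.13) and 1 other member was called higher in its place. That of HFD in C-3BO mice was lost (0 members) without a filter, with at least 10 counts in every library, without HFD C-3BO mice 4 and 5, and with the muscle covariate, which also left 3 calls for saline injection. The number of correlated pairs was 13 with library totals alone, 8 with a prior count of 0.5 and 7 without the 12 shallow libraries.

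Leaving out 1 mouse at a time gave 1 to 6 members called with CL on chow, 2 to 4 in C-3BO mice on chow, 0 to 1 for HFD in control and in C-3BO mice, 3 to 7 in saline mice, 1 to 4 in CL mice, and 4 to 8 for saline injection. Directions that turned belonged to uncalled results. With CL on chow the log2 fold change lay between -0.49 and 0.16 for *Nr4a2*, between -1.90 and 1.74 for *Fos* and between -2.15 and 0.17 for *Egr1*. With CL on HFD it lay between -0.13 and 0.081 for *Sik1* and between -0.37 and 0.041 for *Egr1*, and in C-3BO mice on HFD between -0.52 and 0.28 for *Fosb*.

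The deviations of mice with the same replicate number had correlations from -0.45 to 0.44. The mean was highest, at 0.17, in C-3BO mice against controls on chow. No label says what the numbers mark, so they were not taken as pairs, and whether they mark a litter or day is not known. With the replicate number as a block, the count of members called was 2 in place of 1 with CL on HFD, 2 in place of 3 with CL on chow (*Sik1*, adjusted p = 0.060), 3 in place of 4 for HFD in CL mice (*Junb*, adjusted p = 0.051) and 5 in place of 6 for saline injection (*Fos*, adjusted p = 0.083), and was the same in the other 9 comparisons.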

Other observations

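*Nr4a3*, which the filter on low counts removed, was also fitted without that filter. It then had log2 fold changes of -2.74 ± 0.76 with CL on chow (edgeR, adjusted p = 0.016), 2.82 ± 0.78 with saline injection on chow (adjusted p = 0.014) and -3.89 ± 0.96 for HFD in saline mice (adjusted p = 0.0056). These 3 values share the chow saline mice, in which mouse 1 held 137 counts. In C-3BO mice the values of *Nr4a3* were -1.27 ± 1.02 on chow (adjusted p = 0.41) and -0.65 ± 1.02 on HFD (adjusted p = 0.72).

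Among 15 clock genes, which follow the hour of the day, 1 was called higher and 1 lower with CL on chow, beside 9.16% and 6.13% of all genes. With CL on HFD the counts were 0 and 2 (1 and 4 unadjusted), beside 12.7% and 10.8%. In C-3BO mice on HFD they were 1 and 2, beside 19.3% and 15.5%. In C-3BO mice on chow and for saline injection on chow edgeR called 0, with 0 and 1 at an unadjusted p under 0.05. Over all genes, 15.8% were higher and 15.9% lower in the former comparison and 6.66% and 8.56% in the latter. Within the chow CL group, mouse 5 was the highest for 16 of 32 other immediate early genes and mouse 3 for 7, whereas mouse 3 was the highest for 7 of the 10 members and mouse 5 for 2.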
